A study of Mus musculus with 12 samples.

Results

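Ms4a7, Lyz2, Ctss, Cd14, Msr1, Mrc1, Cd163 and Adgre1 (named Emr1 in the older annotation) are 8 genes of macrophages, read here in mouse retina after injection of gold or silicate nanoparticles into the eye. They were found by matching the RefSeq accession of each probe to the 8 symbols, which gave 10 probes of 39429 on the array, with a further probe each for Msr1 and Adgre1. The genes had been selected on the levels and log2 ratios of these same arrays, so their values are given as a description, and no result is supported by them. Of the 8 genes, 6 passed the filter on dim probes that left 23206 genes for the tests. Msr1 and Cd163 did not pass it.

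The study asked how intravitreal gold or silicate particles change gene expression in the retina. Male C57BL/6 mice aged 5 weeks received phosphate-buffered saline (PBS), gold or silicate into the right eye, with particles of a diameter of 20 nm or 100 nm, and the retina was taken after 7 days. Each group had 12 mice, whose retinas were combined by 4, so that every particle group gave 3 pools. Each of the 12 two-colour arrays set a particle pool, in the red dye Cy5, against a PBS pool, in the green dye Cy3, with no exchange of dyes. Replicates 1, 2 and 3 lay on slides 1, 2 and 3, and each slide held 1 array of every particle group. The labels do not say which PBS tube was on which array, so the 4 Cy3 readings of a slide may be 1 tube read 4 times. The number of arrays limits the precision, and any p-value measures the spread between these arrays. The main fit took the 12 arrays as separate, although those of a slide may share a PBS tube. Its p-values for the mean of the 4 particle groups can therefore be too small. It called 3428 genes in that comparison, against 393 with slide as a random block. As a check of the labelled tissue, Sag, the arrestin of photoreceptors, read 16.40, 16.65 and 16.90 as mean normalized log2 level in the PBS pools of slides 1, 2 and 3.

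Macrophages are phagocytes of the innate immune system, and the retina holds resident ones (microglia and perivascular macrophages) and can receive others from blood monocytes. Lyz2 codes for lysozyme, which cuts bacterial cell walls, and Ctss for cathepsin S, a lysosomal protease that trims the invariant chain during antigen presentation. Ms4a7 is a four-pass membrane protein of macrophages and Adgre1 is F4/80, the classic surface marker of mouse macrophages. Cd14 is the co-receptor for bacterial lipopolysaccharide, Msr1 a scavenger receptor for modified lipoproteins, Mrc1 the mannose receptor and Cd163 the receptor for haptoglobin-haemoglobin complexes.

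Promoter windows from 250 bases before to 50 after the gene start were in the RefSeq table for 5 of the 8 genes (Ms4a7, Lyz2, Ctss, Mrc1 and Cd163), with 6 windows in all because Ms4a7 had a pair. The windows below are shown because most of the genes were high and low in the same pools and the core of the PU.1 site, a factor that macrophages depend on, is the natural motif to look for. The letters GAGGAA on either strand are in capitals. All are on GRCm38.p6, and each reads 5′ to 3′ on the strand of its gene.
Ms4a7 at chr19:11336097-11336396, minus strand: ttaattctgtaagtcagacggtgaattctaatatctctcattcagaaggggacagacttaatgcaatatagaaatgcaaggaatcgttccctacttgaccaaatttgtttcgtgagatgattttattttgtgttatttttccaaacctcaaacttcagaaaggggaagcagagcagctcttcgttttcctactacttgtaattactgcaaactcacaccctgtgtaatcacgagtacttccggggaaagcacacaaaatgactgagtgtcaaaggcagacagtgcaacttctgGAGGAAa
Ctss at chr3:95526536-95526835, plus strand: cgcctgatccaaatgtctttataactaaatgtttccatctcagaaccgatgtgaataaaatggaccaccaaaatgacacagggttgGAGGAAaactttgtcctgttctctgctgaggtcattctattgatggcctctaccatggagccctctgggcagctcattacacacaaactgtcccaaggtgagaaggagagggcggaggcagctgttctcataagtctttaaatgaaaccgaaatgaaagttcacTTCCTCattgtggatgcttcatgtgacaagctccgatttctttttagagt
Mrc1 at chr2:14229164-14229463, plus strand: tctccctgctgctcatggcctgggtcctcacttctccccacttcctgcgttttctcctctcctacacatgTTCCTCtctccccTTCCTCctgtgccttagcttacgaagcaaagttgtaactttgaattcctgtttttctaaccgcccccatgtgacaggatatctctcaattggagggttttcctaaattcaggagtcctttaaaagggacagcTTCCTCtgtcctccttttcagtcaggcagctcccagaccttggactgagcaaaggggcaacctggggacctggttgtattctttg

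GAGGAA was found once in this Ms4a7 window, 43 bases after the gene start, 2 times in Ctss, at 164 bases before the start and at the start, and 3 times in Mrc1, at 180, 167 and 35 bases before it. Thus 3 of 6 windows held it, beside 28.3% of all 32851 windows in the table. The windows of Lyz2 and Cd163 and the other window of Ms4a7 had no such letters. TGANTCA, the AP-1 site, was in 1 of 6 windows, the other one of Ms4a7, beside 7.81% of all windows. TTGCNNAA, a C/EBP site, was in 0 of 6 beside 10.8% of all windows. No window held more than 1 of these motifs, and a match is a match of letters only.

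Of the 8 genes, 7 shared a pattern across the pools. They stood high in PBS on slide 1, high in both silicate pools of slide 3, and lower in the other pools. For these 7 genes the log2 ratio of particle over PBS was strongly negative on all 4 arrays of slide 1, between -0.06 and 1.70 on slide 2, between -0.90 and 0.28 on the gold arrays of slide 3 and strongly positive on the silicate arrays of slide 3. Cd163 was the exception and stayed at background throughout. Levels below are normalized log2 intensities of 1 dye, made comparable between arrays, and are set against each other only within a gene.

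**Figure D1:**
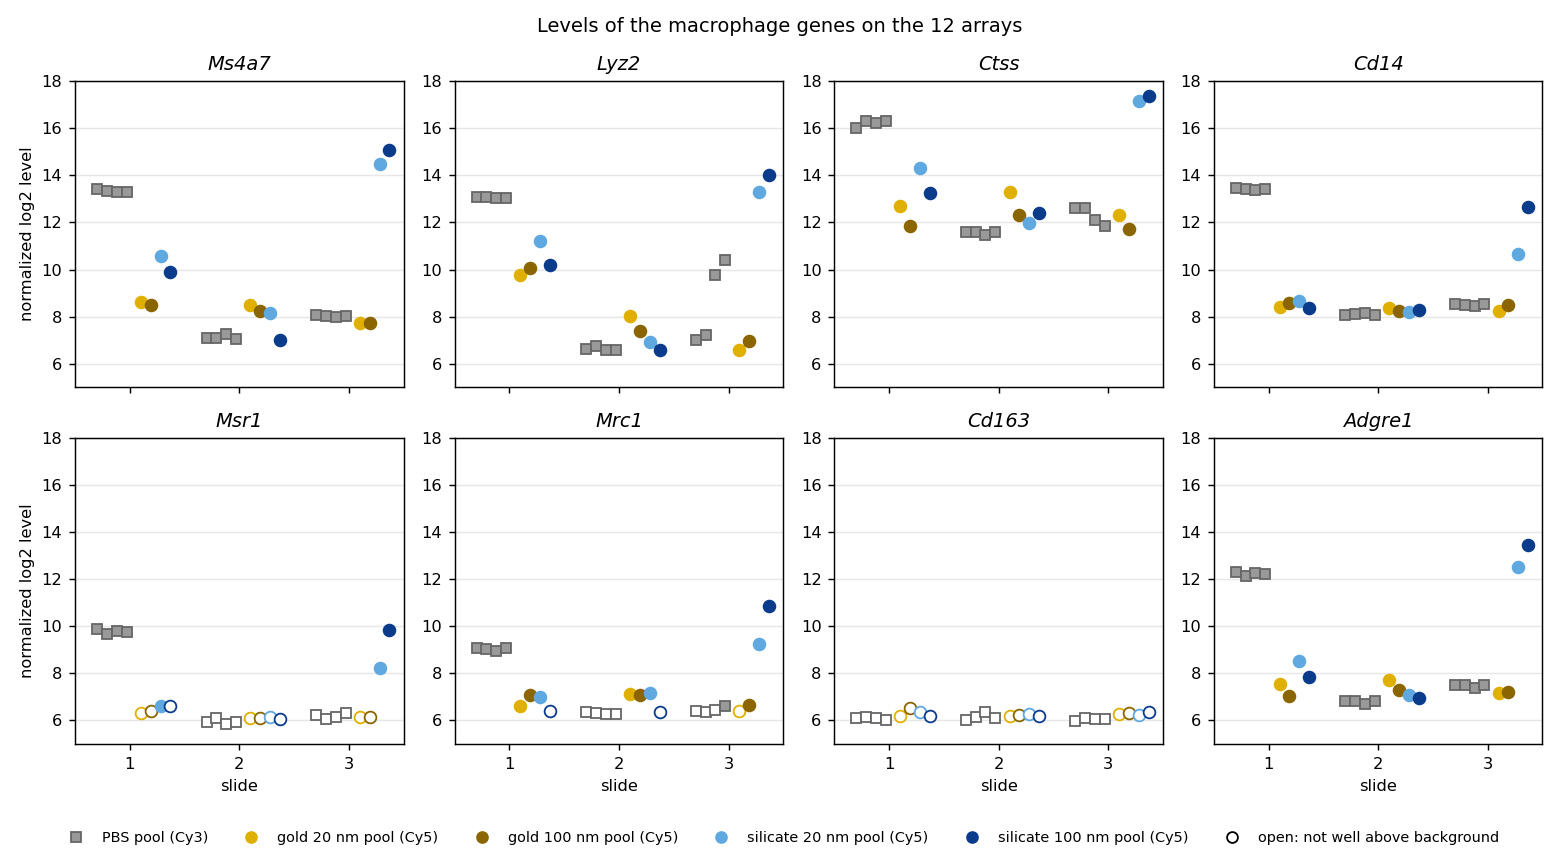
Normalized log2 level (y axis) of each gene by slide (x axis), with grey squares for PBS pools in Cy3 and circles for particle pools in Cy5; open symbols were not well above background, and each symbol is 1 array. For 7 genes the PBS readings of slide 1 and the silicate pools of slide 3 lie above the others, while Cd163 lies flat between 5.98 and 6.51.

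Among the genes of the cell surface, Ms4a7 moved the most. On slide 1 its PBS level was 13.40, 13.34, 13.28 and 13.30 on the gold 20 nm array, the gold 100 nm array and the silicate arrays of 20 nm and then 100 nm, the order used for all lists of 4 values below. On slide 2 the PBS level was 7.07, 7.11, 7.26 and 7.06, and on slide 3 it was 8.06, 8.04, 7.99 and 8.04. The PBS readings of slide 1 thus lay 6.21 log2 units, or 73.9-fold, above those of slide 2, while the 4 readings of a slide differed by an SD of at most 0.09.

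In the particle pools Ms4a7 read 8.61, 8.49, 10.55 and 9.88 on slide 1. It read 8.49, 8.25, 8.15 and 7.00 on slide 2 and 7.72, 7.73, 14.49 and 15.07 on slide 3. All 6 gold pools stayed within 7.72 to 8.61, whereas the 6 silicate pools ran from 7.00 to 15.07, and the materials did not overlap on any slide. The difference of silicate from gold was 1.67 on slide 1, -0.79 on slide 2 and 7.06 on slide 3, the last a 133-fold higher mean level. Silicate thus lay above gold on slides 1 and 3 and below it on slide 2.

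The log2 ratios of Ms4a7 were -4.80, -4.85, -2.73 and -3.43 on slide 1, 1.41, 1.13, 0.89 and -0.06 on slide 2, and -0.34, -0.31, 6.51 and 7.03 on slide 3. Each group held both signs, so its mean says little: -1.24 ± 3.20 for gold 20 nm, -1.34 ± 3.12 for gold 100 nm, 1.56 ± 4.65 for silicate 20 nm and 1.18 ± 5.34 for silicate 100 nm (SD, n = 3 each). Over the 24 readings of both dyes, Ms4a7 had a range of 8.07 log2 units, which was rank 17 of the 23206 genes.

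Adgre1, read by a pair of probes, followed Ms4a7. Its brighter probe gave 12.31, 12.15, 12.24 and 12.21 in PBS on slide 1, 6.82, 6.80, 6.67 and 6.81 on slide 2, and 7.50, 7.48, 7.36 and 7.48 on slide 3. The particle pools read 7.52, 7.04, 8.53 and 7.84 on slide 1, 7.71, 7.27, 7.08 and 6.95 on slide 2 and 7.17, 7.20, 12.50 and 13.42 on slide 3. PBS on slide 1 stood 43.8-fold above PBS on slide 2, and silicate stood 54.8-fold above gold on slide 3.

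The other Adgre1 probe showed the same order with smaller steps. Its log2 ratios were -4.12, -4.05, -2.83 and -3.66 on slide 1 and -0.32, -0.31, 3.74 and 4.35 on slide 3, next to -4.79, -5.10, -3.70 and -4.37 and -0.33, -0.28, 5.14 and 5.94 for the brighter probe. Both probes had the same sign on every array of slides 1 and 3 and on the gold arrays of slide 2. On the silicate arrays of slide 2 the brighter probe gave 0.41 and 0.14, and the other -0.003 and -0.012.

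**Figure D2:**
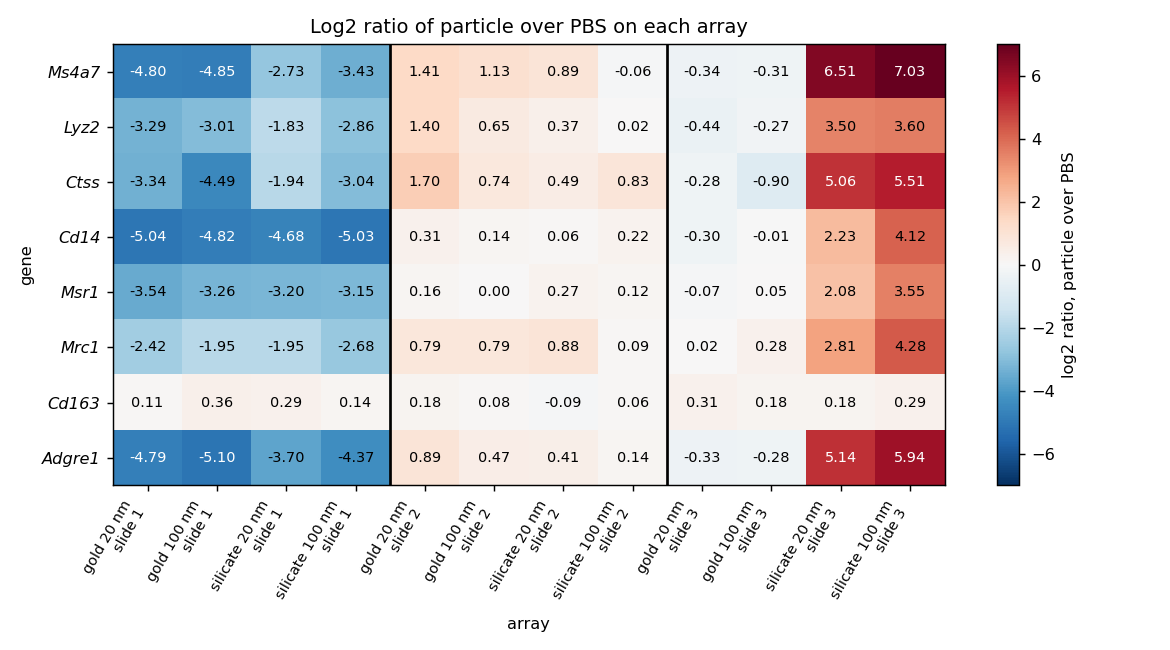
Log2 ratio of particle over PBS for each gene (rows) on each of the 12 arrays (columns, grouped by slide), with red for higher and blue for lower in the particle pool and each number being 1 array. For 7 genes slide 1 is negative throughout and both silicate arrays of slide 3 are positive; Ms4a7 reaches 7.03.

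The enzymes of the lysosome and the granule, Lyz2 and Ctss, had the same high pools but differed in the PBS readings of slide 3. Lyz2 in PBS read 13.08, 13.07, 13.05 and 13.04 on slide 1 and 6.63, 6.76, 6.57 and 6.56 on slide 2, an 86.0-fold difference of means. The readings of slide 2 were near the lowest levels well above background there, 6.25 to 6.37, so this fold is approximate. On slide 3 it read 7.02 and 7.23 on both gold arrays but 9.78 and 10.42 on both silicate arrays. The 4 PBS readings of that slide had an SD of 1.74, against 0.03 for Ms4a7 and 0.09 for the median gene.

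The particle pools gave 9.79, 10.06, 11.21 and 10.18 for Lyz2 on slide 1, 8.03, 7.40, 6.94 and 6.58 on slide 2 and 6.58, 6.96, 13.28 and 14.02 on slide 3. In Cy5 alone, silicate stood 118-fold above gold on slide 3. This fold is approximate too, as the gold 20 nm pool was near the lowest level well above background (6.29). Because PBS also read higher on the silicate arrays, the log2 ratios there were 3.50 and 3.60, where Ms4a7 had 6.51 and 7.03. Among the 5 genes well above background in every pool, Lyz2 also had the largest difference of the particle pools of slide 1 from those of slide 2, 3.07 log2 units, where Ms4a7 differed by 1.41, Ctss by 0.51, Adgre1 by 0.48 and Cd14 by 0.24. All 4 particle pools of slide 1 lay above all 4 of slide 2 for Lyz2. Among these 5 genes the same held narrowly for Ms4a7 and Cd14. Their lowest pools of slide 1 read 8.490 and 8.375, and their highest of slide 2 read 8.486 and 8.371. Whether the Cy3 readings of Lyz2 on slide 3 came from another PBS tube or from the measurement was not tested.

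Lyz1, the gene for the other lysozyme of mice and a near copy of Lyz2, was high in the same pools, and the probes of the pair may read both. Its mean PBS level was 16.41 on slide 1 and 8.71 on slide 2, and its mean log2 ratio was -4.39 on slide 1 and 6.17 on the silicate arrays of slide 3. On slide 3 the PBS readings of Lyz1 were 0.605 higher on the silicate than on the gold arrays, where those of Lyz2 were 2.976 higher. The other 3 kept genes of the lysozyme family, Lalba, Lyzl4 and Lyzl6, had ranges of at most 0.97 log2 units.

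Ctss in PBS read 16.02, 16.32, 16.23 and 16.29 on slide 1, 11.60, 11.59, 11.48 and 11.58 on slide 2, and 12.59, 12.60, 12.08 and 11.85 on slide 3. On slide 3 the silicate arrays thus read lower in PBS, by 0.63, the opposite of Lyz2, with an SD of 0.38 over the 4 arrays. In the particle pools it read 12.68, 11.83, 14.29 and 13.25 on slide 1, 13.30, 12.33, 11.97 and 12.41 on slide 2, and 12.31, 11.70, 17.14 and 17.36 on slide 3. Gold and silicate did not overlap on slide 1 or on slide 3, and they overlapped on slide 2.

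**Figure D3:**
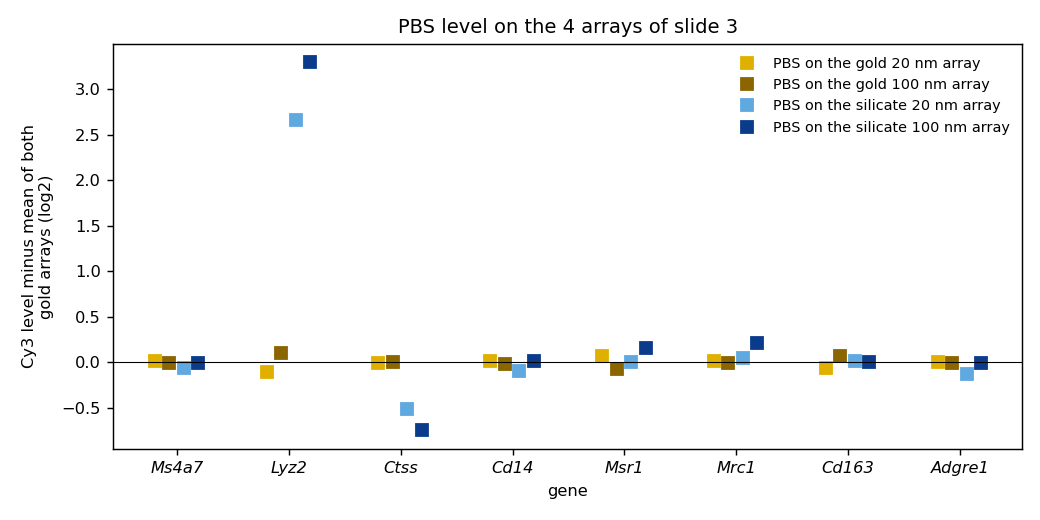
PBS level in Cy3 on the 4 arrays of slide 3 (y axis, log2 units, relative to the mean of both gold arrays) for each gene (x axis), 1 square per array and coloured by the particle pool on the same array. Lyz2 lies high and Ctss low on both silicate arrays, and the other 6 genes lie near 0.

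Cd14, the lipopolysaccharide co-receptor, had nearly level particle pools outside the silicate arrays of slide 3, all of them well above background. Cd14 in PBS read 13.45, 13.42, 13.37 and 13.41 on slide 1, 8.06, 8.10, 8.16 and 8.06 on slide 2, and 8.54, 8.51, 8.44 and 8.54 on slide 3. Its particle pools read 8.41, 8.60, 8.68 and 8.38 on slide 1, 8.37, 8.23, 8.22 and 8.29 on slide 2, and 8.24, 8.50, 10.67 and 12.67 on slide 3. On slide 1 silicate and gold pools thus differed by 0.03, where Ms4a7 differed by 1.67 and Ctss by 1.51.

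On slide 3 silicate 100 nm exceeded silicate 20 nm by 1.99 for Cd14, 1.63 for Msr1 and 1.64 for Mrc1, compared with 0.93 for Adgre1, 0.74 for Lyz2, 0.58 for Ms4a7 and 0.22 for Ctss. Each of these is a difference between 1 pool and 1 pool, with no replicate. Cd14 was also the gene whose silicate pools on slide 3 fell furthest short of the PBS of slide 1, by -1.74 as a mean, and Msr1 followed with -0.74. For Ms4a7 the silicate pools were 1.45 higher than that PBS, for Ctss 1.04, for Mrc1 1.03, for Adgre1 0.73 and for Lyz2 0.59. These last values set Cy5 against Cy3 and are open to dye bias, which no exchange of dyes balanced.

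The log2 ratios of Cd14 were -5.04, -4.82, -4.68 and -5.03 on slide 1, 0.31, 0.14, 0.06 and 0.22 on slide 2, and -0.30, -0.01, 2.23 and 4.12 on slide 3. On slide 1 all 4 groups had nearly the same ratio, with an SD of 0.17. Its group means were -1.68 ± 2.93, -1.57 ± 2.82, -0.80 ± 3.54 and -0.23 ± 4.60 (SD, n = 3 each), lower than 0 in all groups, unlike those of Ms4a7, Lyz2, Ctss, Mrc1 and Adgre1, which were above 0 in both silicate groups.

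Msr1 and Mrc1 were dim, so that folds against their low pools are lower bounds. The brighter Msr1 probe was well above background in PBS on the 4 arrays of slide 1, at 9.86, 9.67, 9.81 and 9.76, and in 3 particle pools, of which both silicate pools of slide 3 read 8.22 and 9.85. PBS on slide 1 was at least 11.1-fold higher than PBS on slide 2, and silicate on slide 3 was at least 7.11-fold higher than gold. The dimmer Msr1 probe had log2 ratios of -3.04, -2.62, -2.99 and -3.02 on slide 1 and of 1.58 and 2.98 on the silicate arrays of slide 3, so the probes had the same sign there.

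Mrc1 was well above background in 5 of 12 PBS readings and 9 of 12 particle pools. It read 9.05, 9.01, 8.96 and 9.07 in PBS on slide 1, at least 6.49-fold above slide 2, where all 4 PBS readings were not well above background. Particle pools read 6.63, 7.06, 7.01 and 6.39 on slide 1, 7.13, 7.08, 7.15 and 6.37 on slide 2, and 6.42, 6.64, 9.23 and 10.87 on slide 3. On slides 1 and 2 the silicate 100 nm pools, and on slide 3 the gold 20 nm pool, were not well above background. Both silicate pools of slide 3 lay above all other particle pools.

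Cd163 was not well above background in any of the 24 readings. Its level lay between 5.98 and 6.51, and its log2 ratios lay between -0.09 and 0.36, positive on 11 of 12 arrays. Since no pool measured it above background, no fold is given. Its transcript was not detectable on these arrays, in the pools with high Ms4a7 as in the others.

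Over the 24 readings, the 7 detected genes correlated with each other at a Pearson r between 0.84 (Lyz2 with Cd14) and 0.99 (Cd14 with Msr1), and Cd163 with each of them between -0.19 and 0.06. The points share arrays, slides and possibly PBS tubes, and the genes were chosen for this pattern, so these values are a description. The median log2 ratio of the 8 genes was -3.44, -3.87, -2.34 and -3.10 on slide 1, 0.84, 0.56, 0.39 and 0.11 on slide 2, and -0.29, -0.14, 3.16 and 4.20 on slide 3. The median of all kept genes was between -0.01 and 0.01 on each array. On the arrays of slide 1 and the silicate arrays of slide 3, 7 of 8 genes lay beyond a log2 size of 1, as did 6.48% to 8.44% of all kept genes. On slide 2, 3 genes lay beyond it on the gold 20 nm array (Ctss at 1.70, Ms4a7 at 1.41 and Lyz2 at 1.40), beside 1.23% of all kept genes, and 1 on the gold 100 nm array (Ms4a7), beside 1.36%. On the other 4 arrays 0 of the 8 genes did. In bulk tissue, a change in the number of cells of a type and a change in RNA per cell cannot be told apart.

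**Figure D4:**
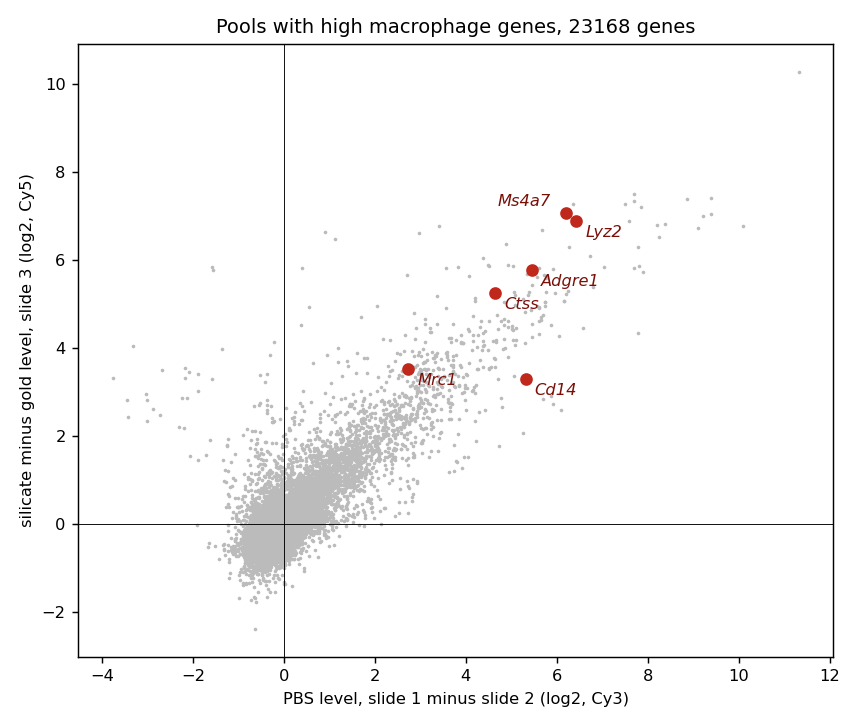
Each grey point is 1 of 23168 genes with all values: its PBS level on slide 1 minus slide 2 in Cy3 (x axis, log2) against its silicate minus gold level on slide 3 in Cy5 (y axis, log2), with the 6 kept macrophage genes in red. All 6, which were chosen on these levels, lie at the upper right, and Cd14 lies below Adgre1 at nearly the same x value.

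Set against all genes, the 6 kept genes lay in the top percentiles of both differences. As they were chosen on these same levels, their places are a description only. They were at percentiles 98.12 (Mrc1) to 99.78 (Lyz2) for PBS on slide 1 over slide 2, and 98.73 (Cd14) to 99.89 (Ms4a7) for silicate over gold on slide 3. Both differences were at least 2 log2 units for all 6 genes and for 519 of 23168 genes, or 2.24%. Across genes, which are not independent replicates, these differences correlated at r = 0.82 in pools that share no array.

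In the fit across all genes with limma and Benjamini-Hochberg adjustment at 0.05, 0 of the 6 tested genes were called in any comparison, and 0 had an unadjusted p under 0.05. The share of all genes called was 0.707% for gold 20 nm against PBS, 0.978% for gold 100 nm, 2.09% for silicate 20 nm, 0.991% for silicate 100 nm and 14.8% for the mean of the 4 particle groups. For gold against silicate it was 0%, with 1204 genes (5.19%) at an unadjusted p under 0.05. The fit with the slide as a replicate block called 1038, 1561, 2037, 939 and 8088 genes in the 5 comparisons with PBS, against 164, 227, 484, 230 and 3428 without it, and 0 for gold against silicate in both. It called 1 of the 6 genes, Cd14, in the mean of the 4 groups, at -1.07, beside 8088 of all 23206 genes. The mean log2 ratio of Cd14 was -4.895 on slide 1, 0.18 on slide 2 and 1.51 on slide 3. The negative sign thus came from slide 1 alone. A replicate block takes such differences between slides out of the error. With slide as a random block, 0 of the 6 genes were called in that comparison. As the genes were chosen on these contrasts, nothing is read from these counts.

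The mean differences of gold from silicate were -2.66 for Ms4a7, -2.25 for Ctss, -2.12 for Adgre1, -1.29 for Lyz2, -1.11 for Cd14 and -0.99 for Mrc1. Within slides, the value for Ms4a7 was -1.74 on slide 1, 0.85 on slide 2 and -7.10 on slide 3, and the value for Ctss was -1.42, 0.56 and -5.88. The direction thus did not hold within slide 2 for either gene. Without both silicate arrays of slide 3, the median over the 8 genes moved from -1.20 to 0.30. Gold then still included slide 3 and silicate did not, so that value mixes the materials with the slides. Leaving out all of slide 3 did not turn the sign.

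Genes outside the set whose 24 readings followed the mean of the 8 genes most closely were Cyba, a subunit of the phagocyte NADPH oxidase (r = 0.997), Atp6v0e, a subunit of the vacuolar proton pump (0.996), and Ms4a6c, of the same family as Ms4a7 (0.996). Next came Cd300c2 (0.995), Myo1f (0.995), Fcer1g, the signalling chain of Fc receptors (0.995), Tbxas1, thromboxane synthase (0.995), Gpr65 (0.994), Tgfb1 (0.994) and Ctsz, a further lysosomal cathepsin (0.994). Cyba had mean log2 ratios of -3.53 in gold and -3.01 in silicate on slide 1 and of -0.35 in gold and 3.77 in silicate on slide 3. Of these 10 genes, 5 were also among the closest 10 without slide 1, and 6 without slide 3.

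The other genes of the pathways were read from 13 lists with 122 kept genes. In all comparisons, 4 of these genes were called, all 4 higher in particle pools and 0 lower. All 4 were called in the mean of the 4 groups, which is 3.28% of the list genes beside 14.8% of all genes, of whose 3428 calls 1957 were higher. They were F10, coagulation factor X (1.11 in the mean of the 4 groups, adjusted p = 7.7e-05 with limma), Ms4a4c (0.49, adjusted p = 0.000206), Siglech of microglia (0.50, adjusted p = 0.00224) and Scara5, a ferritin receptor (0.22, adjusted p = 0.0179). F10 was also called for gold 100 nm (1.20), silicate 20 nm (1.13) and silicate 100 nm (1.13), and Ms4a4c for silicate 20 nm (0.55). With slide as a random block, F10 (adjusted p = 0.00518) and Ms4a4c (adjusted p = 0.0115) were called in the mean of the 4 groups, and Siglech (adjusted p = 0.0929) and Scara5 (adjusted p = 0.421) were not. With the mean of all probes of a gene in place of the brightest, F10 (0.19, adjusted p = 0.813) and Ms4a4c (0.20, adjusted p = 0.64) were not called. Leaving out replicate 1 ended the calls of Siglech (adjusted p = 0.0627) and Scara5 (adjusted p = 0.105), and leaving out replicate 2 those of both and of Ms4a4c (adjusted p = 0.0502). With particles always in Cy5, a dye effect of a probe is part of each of these values.

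**Figure D5:**
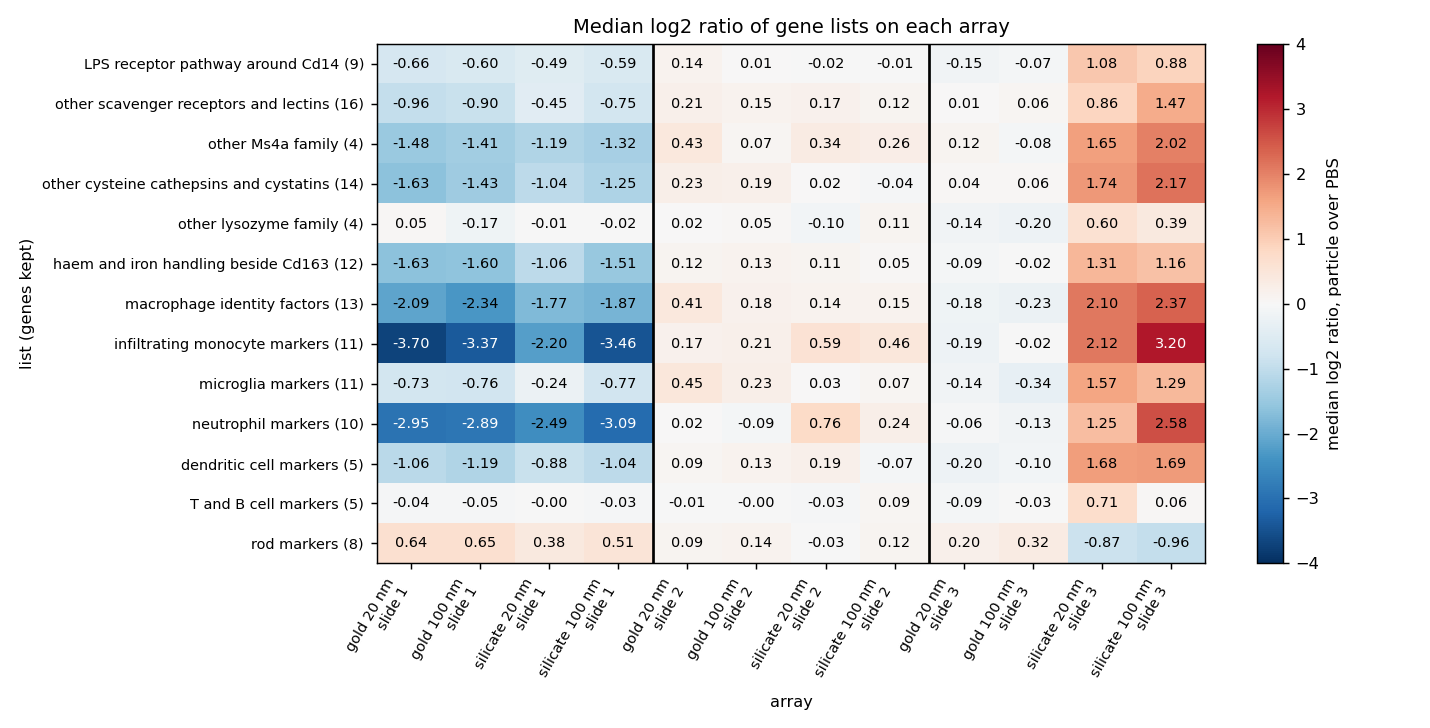
Median log2 ratio of particle over PBS over the kept genes of each list (rows, with the number of kept genes) on each of the 12 arrays (columns, grouped by slide). The lists of macrophage, monocyte and neutrophil genes are negative on slide 1 and positive on the silicate arrays of slide 3, and the rod list has the opposite signs there.

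Around Cd14, the 9 kept genes of the lipopolysaccharide receptor pathway had medians of -0.66 to -0.49 on slide 1 and of 1.08 and 0.88 on the silicate arrays of slide 3. Of these, Tlr4 had the largest range, with mean log2 ratios of -2.10 on slide 1 and 2.14 in silicate on slide 3, and Ly96, its partner MD-2, had -1.95 and 1.72. Among 16 other scavenger receptors and lectins, Clec4d moved by -7.03 and 6.92 and Marco, a further class A scavenger receptor, by -3.90 and 5.17. The median of that list was -0.96 to -0.45 on slide 1 and 0.86 and 1.47 in silicate on slide 3. Above 0 lay 3, 6, 7 and 4 of its 16 genes on the arrays of slide 1. On the silicate arrays of slide 3, 13 and 14 did. Part of the list thus did not follow Clec4d and Marco, which were named for their large range.

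Of 4 other kept genes of the Ms4a family, Ms4a6d had mean log2 ratios of -4.61 on slide 1 and 5.51 in silicate on slide 3, and Ms4a6c had -2.75 and 3.37. Ms4a4c had 0.50 and 0.30, and Ms4a5 had 0.05 and -0.21, so part of the family did not follow Ms4a7. Around Ctss, the 14 other cathepsins, cystatins and Cd74, the invariant chain, had medians of -1.63 to -1.04 on slide 1 and of 1.74 and 2.17 in silicate on slide 3. Cd74 had 3.87 in silicate on slide 3 and Ctsc had 3.92.

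Around Cd163, the list of haem and iron genes moved although Cd163 was not detected. Its 12 genes had medians of -1.63 to -1.06 on slide 1 and of 1.31 and 1.16 in silicate on slide 3. Hp, haptoglobin, which is part of the ligand of Cd163, had -4.34 and 4.53, and Hmox1, haem oxygenase, had -2.89 and 1.20. The 13 macrophage identity genes had medians of -2.34 to -1.77 on slide 1 and of 2.1 and 2.37 in silicate on slide 3, with Cebpb at -4.32 and 4.04 and Csf2rb at -3.59 and 3.75.

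Among markers of other cell types, the neutrophil, monocyte and dendritic cell lists moved on the same arrays. On slide 1 the microglia list was split, with 4 or 5 of 11 genes above 0, and the T and B cell list lay near 0. The 10 of 12 neutrophil markers that were kept had a summed level of 18.5 to 18.6 (log2 of the summed intensities) in PBS on slide 1, 12.1 to 12.2 on slide 2, 12.0 to 15.4 in gold pools and 17.5 to 17.8 in silicate pools of slide 3. On slide 3 their PBS sum was 12.1 and 12.2 on the gold arrays. On the silicate arrays it was 14.7 and 14.0, higher as for Lyz2. Monocyte markers (11 of 13) had medians of -3.70 to -2.20 on slide 1 and of 2.12 and 3.20 in silicate on slide 3, and microglia markers (11 of 11) had -0.77 to -0.24 and 1.57 and 1.29. The summed level of the monocyte markers was 18.8 to 19.0 in PBS on slide 1 and 17.4 to 17.7 on slide 2. It was 18.5 to 18.7 in gold pools and 18.7 to 19.1 in silicate pools of slide 3, a small step. The microglia sum was 17.0 to 17.4 in gold pools and 17.3 in silicate pools of slide 3, so this sum did not separate them. Such a sum follows its brightest genes. By ratio, 10 of 11 microglia genes lay above 0 on each silicate array of slide 3, and 7 lay beyond a log2 size of 1. Olfml3, Selplg, Cx3cr1 and Tmem119, the 4 with the largest range, had means of 2.56, 2.37, 2.16 and 1.56 there. The 5 dendritic cell markers had -1.19 to -0.88 and 1.68 and 1.69, and the 5 T and B cell markers had -0.05 to 0.00 and 0.71 and 0.06.

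Rod markers (8 of 8) went the other way, with medians of 0.38 to 0.65 on slide 1 and of -0.87 and -0.96 in silicate on slide 3. Their summed level was 19.4 to 19.5 in PBS on slide 1, 19.8 to 19.9 in PBS on slide 2, 20.0 to 20.2 in gold pools and 19.3 to 19.4 in silicate pools of slide 3. In PBS on slide 3 it was 19.8 and 19.7 on the gold arrays and 20.2 on both silicate arrays. A higher PBS reading is thus part of the negative ratios on those silicate arrays. The part of these cell types in the levels of the 8 genes was not tested.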

How the data were processed

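The deposited scanner files hold intensity values, written by Agilent's Feature Extraction software (11.0.1.1 in the file headers, 9.3.2.1 per the submitters' processing notes). The log10 ratio in the same deposited files served only to place the deposited value table, which holds log2 ratios of Cy5 over Cy3 (slope 3.2994 to 3.3181, column medians 0.016 to 0.11); its centring is unknown. Median signals were corrected with normexp (limma 3.58.1 in R 4.3.3, data.table version 1.17.8, offset 50) and normalized by loess, with 1377 control spots at weight 0, 149 to 257 outlier spots per array left out and 0 saturated. Levels were scaled between arrays (Aquantile). Spots of a probe were averaged. RefSeq accessions named 26055 of 32334 such probes through a GRCm38.p6 table. A probe was kept when well above background in a channel on all 3 arrays of a group. This left 28428 probes and 23206 genes, each read by its brightest probe. Ratios were tested with lmFit and eBayes in 1 fit with 4 group means (checked on simulated data). A bound sets the bright mean against the lowest signal well above background, or the probe's own where higher, and is open to dye bias. Deviations correlated between arrays of a slide (0.888 to 0.934, 0.081 to 0.831 and 0.553 to 0.919 for slides 1 to 3), and headers show the shared slide, so replicate numbers pair the arrays. Named were the 8 genes, the 10 closest by correlation and up to 4 per list with the largest range; the genes called from the lists were named after their values were seen. The members and lists were chosen with earlier results of these data known. Protein identity of Lyz1 and Lyz2 was not analysed here.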

Additional observations from a re-analysis of the deposited data

How the results depend on the processing

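The count of called macrophage genes was 0 in all 6 comparisons and changed in 2 alternatives, both for the mean of the 4 particle groups. It was 1 without the filter on dim probes, where Cd163 (0.17), not well above background on any array, was called, and 1 with the replicate block, where Cd14 was called. The replicate block changed no other call of these genes. Leaving out each replicate in turn gave 0 in every comparison. The median log2 ratio of the 8 genes, with no test, ran from -1.84 to 0.34 for gold 20 nm, -2.03 to 0.11 for gold 100 nm, -0.82 to 1.89 for silicate 20 nm, -1.47 to 2.18 for silicate 100 nm, -1.34 to 1.17 for the mean and -2.03 to 0.30 for gold against silicate. The sign turned without slide 1 for gold and for the mean, and without slide 3 or its silicate arrays for silicate. For gold against silicate it turned only without the silicate arrays of slide 3, a setting in which gold kept slide 3 and silicate did not. For the mean, with a median of -0.08, it also turned with processed signals (0.01) and the value table (0.00).

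Counts over all genes moved more. With processed signals silicate 20 nm gave 239 and the mean 2175. With median centring gold 20 nm gave 350, gold 100 nm 421 and silicate 100 nm 479, and 2591 of 3413 calls for the mean were higher, against 1957 of 3428, as were 456 of 520 for silicate 20 nm, against 369 of 484. Processed signals left that split at 1253 of 2175. With slide as a random block silicate 20 nm gave 290, the mean 393 and gold against silicate 15, and the value table gave 319 for silicate 20 nm. Without a replicate the counts were 8 to 54, 4 to 34, 8 to 176, 7 to 43 and 267 to 2110 for the 5 comparisons with PBS. Without both silicate arrays of slide 3 they were 222 for silicate 20 nm, 129 for silicate 100 nm and 1 for gold against silicate. Cy5 levels alone, chosen after seeing the data, gave 6 for gold against silicate. The causes were not tested. Low signal over background limits Msr1, Mrc1 and Cd163, and the low pools of Lyz2.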
